A study of Canis lupus familiaris with 42 samples.

Results

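The genes described here are 38 genes that act in G2 and mitosis, from the cyclins and kinases that start mitosis to the proteins that build the spindle and cut the daughter cells apart. They were chosen by symbol, and for each the probe set annotated with that symbol alone and with the highest mean over all 42 arrays was used. Of the 38 genes, 33 were measured in this way, out of 15115 genes in all, and no filter on low values was applied. CCNB1, BUB1, MAD2L1, CENPE and KIF20A had no such probe set and were not analysed here. The samples were spontaneous sarcomas of dogs, tumours of connective tissue that arise in the animal itself. The group before treatment holds 21 tumours with no treatment recorded, and the group after holds the same 21 tumours after their first hyperthermia (heating of the tumour), which was given beside radiotherapy. The series design speaks of 22 tumours. The labels give no age, breed, sarcoma type, temperature or time between the samples, and do not say whether radiation had been given before the second sample. None of the tumours analysed here has a second sample taken without treatment, so each change is that between the first and the second sample.

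Cells enter mitosis when CDK1 bound to a cyclin becomes active. Spindle motors and kinetochore proteins then attach the chromosomes to microtubules, a checkpoint delays anaphase until all are attached, and the anaphase-promoting complex marks cyclins and other proteins for destruction. The genes for most of these proteins are switched on together in G2 by the transcription factors B-MYB and FOXM1, and are held down by the DREAM complex when p21 (CDKN1A) acts. Their RNA is therefore used as a measure of how many cells in a tissue are dividing. In whole tumour tissue, fewer dividing cells and less RNA per dividing cell cannot be told apart.

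Values are log2 levels after RMA, so a difference of 1 is a 2-fold difference. The number of tumours and the spread of their changes set the precision of a mean change. Levels of different probe sets are not comparable with each other. Of the 33 probe sets, 14 had a mean before treatment at or below 5.28, the median over all probe sets. The other 19 lay above it, as did 60.7% of all genes. Mesenchymal and fibroblast markers such as VIM and COL1A1 had means per tumour from 11.2 to 12.7 before treatment, above the median over all probe sets in every tumour. The spike-in controls split the tumours into 9 with high and 12 with low spike levels, called the spiked and unspiked labelling batches here although no label names them. A sign of RNA quality, the 3′ to 5′ contrast of actin and GAPDH control probe sets, changed by a mean of 0.30 in spiked and -0.05 in unspiked tumours.

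Mitosis genes were lower in the second sample. Of the 33 genes, 25 fell and 0 rose (limma with each tumour as a block, Benjamini-Hochberg adjusted p under 0.05 over all 42924 probe sets), where 3.13% of all genes fell and 4.02% rose. The median change of the 33 genes was -0.68 on the log2 scale, against 0.01 over all genes. All 33 mean changes lay below 0, from -1.67 for TOP2A to -0.04 for UBE2C, and 6 genes (TOP2A, KIF11, NUF2, CCNB2, CDK1 and ASPM) fell at least 2-fold on average. Of the 33, 8 were lower in at least 19 of the 21 tumours, as were 0.576% of all genes, and no gene was lower in all 21.

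TOP2A codes for topoisomerase II alpha, which untangles sister chromatids, and had the largest mean change. Its level ran from 4.66 over a median of 6.45 to 8.89 before treatment, and from 3.42 over 4.75 to 7.60 after. The groups overlapped, but 10 of the 21 tumours after treatment lay below the lowest level seen before. TOP2A fell by 1.67 ± 0.24 on the log2 scale (SE, n = 21), or 3.18-fold, in 19 of 21 tumours (limma adjusted p = 0.000323). The change in single tumours ran from -3.52 in tumour 19 to 0.69 in tumour 13. FOXM1, a transcription factor of G2 genes, gave a different result with each of its probe sets. The one used had levels from 4.51 to 5.70 before and from 4.26 to 5.26 after treatment and did not pass (-0.17 ± 0.06, SE, n = 21, limma adjusted p = 0.0943, 16 tumours lower). The other, with a slightly lower mean over all arrays, had a change of -0.83 ± 0.15 (limma adjusted p = 0.00258).

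**Figure D1:**
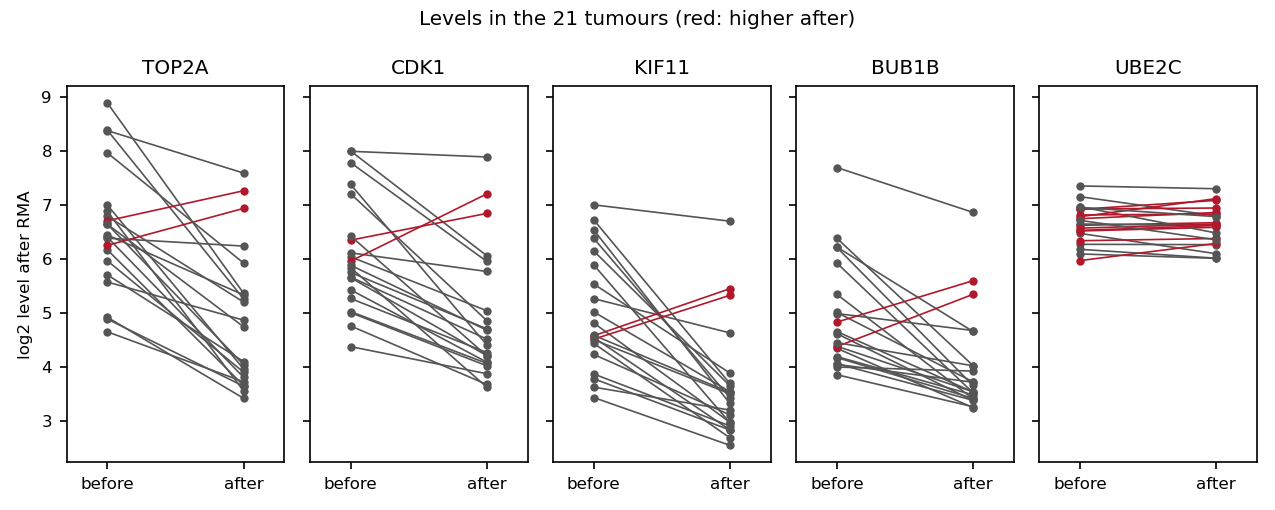
Log2 levels after RMA of TOP2A, CDK1, KIF11, BUB1B and UBE2C in 21 tumours, each line joining the array before and the array after treatment of 1 tumour. Red lines are tumours with a higher level after treatment: 2 of 21 for TOP2A, CDK1, KIF11 and BUB1B, and 11 of 21 for UBE2C, whose levels moved little; levels of different genes are not comparable.

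All 3 measured members of the CDK1 and cyclin group fell, each in 19 of 21 tumours. CDK1, the kinase that drives entry into mitosis, ran from 4.38 over a median of 5.89 to 8.01 before and from 3.63 over 4.52 to 7.90 after treatment. It fell by 1.14 ± 0.19 (SE, n = 21), or 2.20-fold (limma adjusted p = 0.00156). CCNB2, a B-type cyclin that binds CDK1, fell by 1.16 ± 0.21. CCNA2, the cyclin of S phase and G2, changed least of the 3, by -0.90 ± 0.17 (limma adjusted p = 0.00375), from a median of 5.16 to one of 3.96. In each of these genes the groups overlapped, while 9 (CDK1 and CCNA2) or 11 (CCNB2) of the 21 tumours after treatment lay below the lowest level before. All 3 probe sets of CDK1 fell, with changes from -1.25 to -1.14.

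Among 8 genes of mitotic kinases and the chromosomal passenger complex, which corrects wrong attachments, 5 fell and 3 did not pass. PBK, a kinase of mitotic cells, had the smallest p of this group. It ran from 4.27 over 5.31 to 7.38 before and from 3.80 over 4.32 to 6.49 after treatment, and fell by 0.82 ± 0.16 (SE, n = 21, limma adjusted p = 0.00335, 18 tumours). TPX2, which activates Aurora A on the spindle (-0.56 ± 0.15), and PLK1, a kinase of spindle assembly and mitotic exit (-0.50 ± 0.12), fell in 17 tumours each. AURKB, the kinase of the passenger complex (-0.48 ± 0.11, 19 tumours), and MELK (-0.47 ± 0.14, 14 tumours) fell as well. AURKA, the centrosome kinase, ran from 5.59 over 5.97 to 7.12 before and from 5.46 over 5.89 to 6.92 after treatment. Its change of -0.18 ± 0.09 did not pass (limma adjusted p = 0.268), although 15 tumours were lower. The passenger subunits BIRC5, also called survivin (-0.29 ± 0.12), and CDCA8, or borealin (-0.19 ± 0.08), did not pass with the probe sets used (limma adjusted p = 0.163 and 0.186). The second probe set of BIRC5 had a change of -0.50 ± 0.12 (limma adjusted p = 0.0125).

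Of the 4 measured genes of the spindle checkpoint and the anaphase-promoting complex, 3 fell. BUB1B, the checkpoint protein BUBR1, ran from 3.86 over 4.62 to 7.70 before and from 3.25 over 3.66 to 6.87 after treatment. It fell by 0.92 ± 0.18 (SE, n = 21, limma adjusted p = 0.00453) in 19 tumours, and 13 of the 21 tumours after treatment lay below the lowest level before. CDC20, the activator of the anaphase-promoting complex that the checkpoint holds back, fell by 0.85 ± 0.17 in 18 tumours. The checkpoint kinase TTK, or MPS1, fell by 0.66 ± 0.17 in 16 tumours. UBE2C, the ubiquitin-conjugating enzyme of the same complex, stood apart. Its level ran from 5.98 over 6.65 to 7.36 before and from 6.02 over 6.63 to 7.31 after treatment, nearly the same range. The change was -0.04 ± 0.05 with an interval from -0.14 to 0.07 (95%, limma adjusted p = 0.762), and 10 tumours were lower. Its other probe sets had changes of -0.26 ± 0.08 and 0.11 ± 0.06, neither of which passed (limma adjusted p = 0.0601 and 0.363), so the annotated probe sets of this gene gave no common direction.

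Of 4 centromere and kinetochore genes, 3 fell. NUF2, a subunit of the NDC80 complex that grips microtubules, ran from 4.07 over 5.67 to 8.28 before and from 3.16 over 3.96 to 7.11 after treatment. It fell by 1.27 ± 0.22 (SE, n = 21), or 2.41-fold, in 18 tumours (limma adjusted p = 0.002). Its partner NDC80 fell by 0.70 ± 0.20 in 16 tumours, although its level in tumour 1 was 1.49 higher after treatment. CENPF, a large kinetochore protein made in G2, fell by 0.86 ± 0.16 in 17 tumours. CENPA, the histone variant that marks the centromere, ran from 6.23 over 6.68 to 7.12 before and from 6.01 over 6.56 to 7.42 after treatment and did not pass (-0.08 ± 0.05, limma adjusted p = 0.473, 15 tumours lower).

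Of 7 genes of spindle motors and spindle proteins, 6 fell. KIF11, the kinesin that pushes the spindle poles apart, ran from 3.44 over 4.59 to 7.01 before and from 2.55 over 3.44 to 6.71 after treatment. It fell by 1.37 ± 0.23 (SE, n = 21), or 2.58-fold, in 19 tumours (limma adjusted p = 0.00136), and 11 tumours after treatment lay below the lowest level before. ASPM, a protein of the spindle poles, fell by 1.06 ± 0.23 in 18 tumours, and DLGAP5 (HURP), which stabilises microtubules near chromosomes, by 0.81 ± 0.17 in 17. NUSAP1 (-0.56 ± 0.12), the chromosome kinesin KIF4A (-0.28 ± 0.08) and HMMR (-0.26 ± 0.07) fell by less. KIF2C, a kinesin that takes microtubules apart, ran from 4.66 over 5.11 to 6.06 before and from 4.48 over 5.13 to 5.88 after treatment. It did not pass (-0.07 ± 0.07, limma adjusted p = 0.661, 13 tumours lower), and neither did its other 3 probe sets.

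Of 5 cytokinesis genes, 4 fell. RACGAP1, a subunit of centralspindlin, ran from 5.03 over 6.12 to 8.59 before and from 4.17 over 5.14 to 7.94 after treatment, and fell by 0.83 ± 0.17 (SE, n = 21, limma adjusted p = 0.00568) in 19 tumours. KIF23, the kinesin of centralspindlin (-0.81 ± 0.19), and PRC1, which bundles the midzone microtubules (-0.79 ± 0.17), fell in 18 tumours each. ECT2, which activates RhoA for the contractile ring, fell by 0.68 ± 0.18 in 17. ANLN, the ring scaffold anillin, ran from 3.27 over 3.82 to 4.43 before and from 3.33 over 3.51 to 4.32 after treatment, low throughout, and did not pass (-0.18 ± 0.08, limma adjusted p = 0.174, 14 tumours lower). The calls on MELK, NDC80, KIF4A and TPX2 were close to the threshold. Of 21 fits with a single tumour removed, TPX2 missed the threshold without tumour 2 (-0.48) and without tumour 20 (-0.53, limma adjusted p up to 0.0518). KIF4A missed it in 9 fits, without tumours 1, 2, 3, 4, 11, 17, 19, 20 or 21 (-0.28 to -0.24, limma adjusted p up to 0.0689). NDC80 missed it in 10, without tumours 2, 4, 7, 8, 9, 11, 14, 16, 19 or 20 (-0.71 to -0.61, limma adjusted p up to 0.0667). MELK missed it in 14, passing only without tumours 3, 5, 8, 13, 15, 17 or 20 (limma adjusted p up to 0.0806). The other 21 calls held in all 21 fits.

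**Figure D2:**
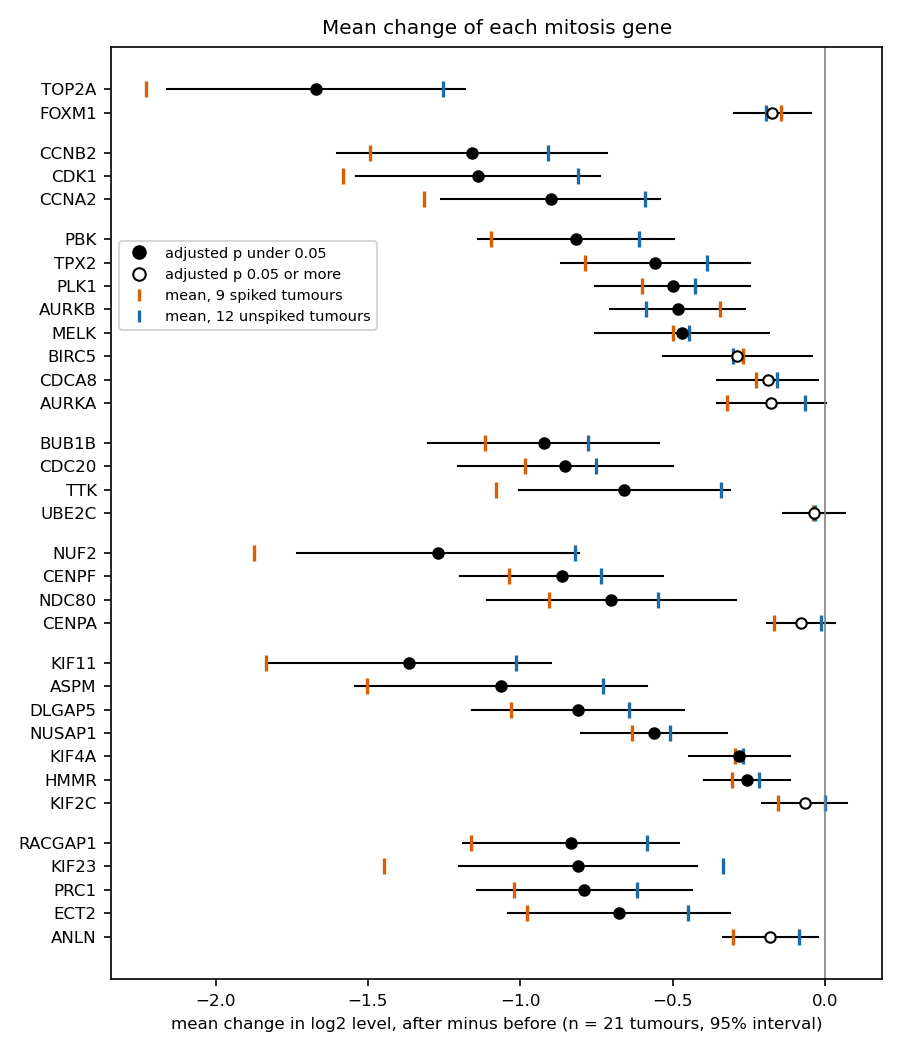
Mean change in log2 level (after minus before, n = 21 tumours) of the 33 genes, with the limma 95% interval as a line; filled circles passed at an adjusted p under 0.05 and open circles did not. Orange and blue ticks are the means of the 9 spiked and 12 unspiked tumours, and the orange tick lies further below 0 than the blue one in 30 of 33 genes.

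Several probe sets were available for 23 of the 33 genes. The 34 probe sets not used had a change below 0 in 30 cases and fell in 17 (limma adjusted p under 0.05). In 10 of the 23 genes some probe sets passed and others did not. In FOXM1 and BIRC5 the probe set used did not pass and the other did. In MELK, NDC80, KIF4A, NUSAP1, DLGAP5, HMMR, KIF23 and PRC1 the one used passed and another did not. No other probe set passed for NDC80 (limma adjusted p = 0.182 and 0.255), KIF4A (0.965), HMMR (0.134) or KIF23 (0.0938). With the probe set of largest spread for each gene, 27 of 33 genes fell. Members with little spread between tumours before treatment had small mean changes. Over the 33 genes, the SD before treatment and the mean change had a Pearson r of -0.91, a description across genes that share the same 21 tumours and are not independent replicates. The SD before treatment was 0.35 for UBE2C, 0.25 for CENPA and 0.34 for the FOXM1 probe set used, against 1.14 for TOP2A, 1.15 for NUF2 and 1.07 for KIF11. The median SD over the 33 genes was 0.75 before and 0.83 after treatment. A smaller SD after was seen in 13 of the 33, a lower share than the 58.0% of all genes.

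**Figure D3:**
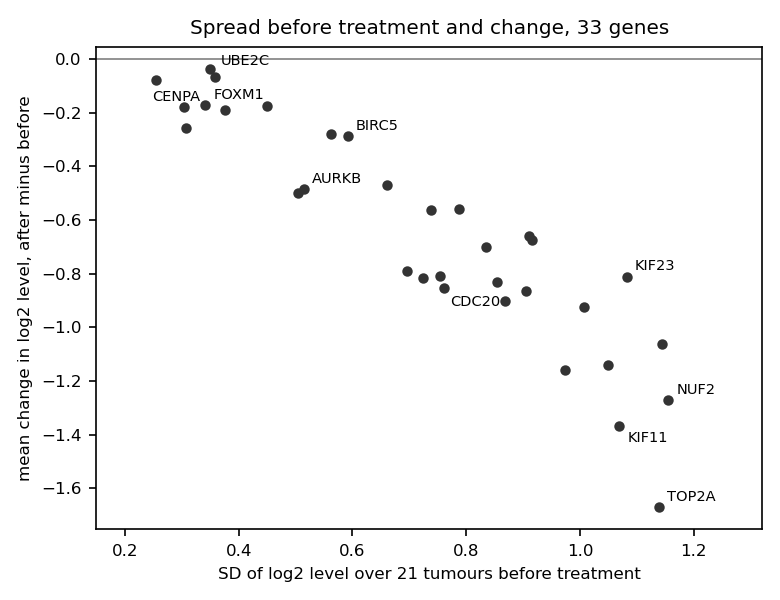
For each of the 33 genes, the SD of the log2 level over 21 tumours before treatment (x axis) and the mean change in log2 level, after minus before (y axis). Points fall from the upper left, where UBE2C (-0.04) and CENPA (-0.08) lie, to TOP2A (-1.67) at the lower right.

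Most but not all tumours had the lower values. The mean change over the 33 genes was below 0 in 18 of 21 tumours, with a mean of -0.65 ± 0.61 (SD, n = 21). It was lowest in tumour 2 (-1.63), tumour 4 (-1.60) and tumour 19 (-1.51), where 32, 32 and 31 of 33 genes were lower and 21, 22 and 22 of them by at least 2-fold. In tumour 11 all 33 genes were lower. Tumours 13 and 15 went the other way, with mean changes of 0.63 and 0.55, and tumour 5 hardly changed on average (0.02). In tumour 13, 30 of 33 genes were higher and 6 by at least 2-fold. In tumour 15, 29 were higher and 2 by at least 2-fold, and in tumour 5, 19 were higher with no gene past 2-fold. Before treatment these 3 tumours were not at either end of the range, with means over the genes of 5.53, 5.70 and 5.73 against 5.004 to 7.36 over all tumours. After treatment they were among the 4 highest, at 6.15, 6.25 and 5.74. The highest was tumour 17, which had the highest mean before treatment (7.36) and kept 6.89. The direction ran through every role: the median change of a role's genes was below 0 in 17 tumours for the kinetochore group, and in 18 or 19 for each of the other 6 groups.

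**Figure D4:**
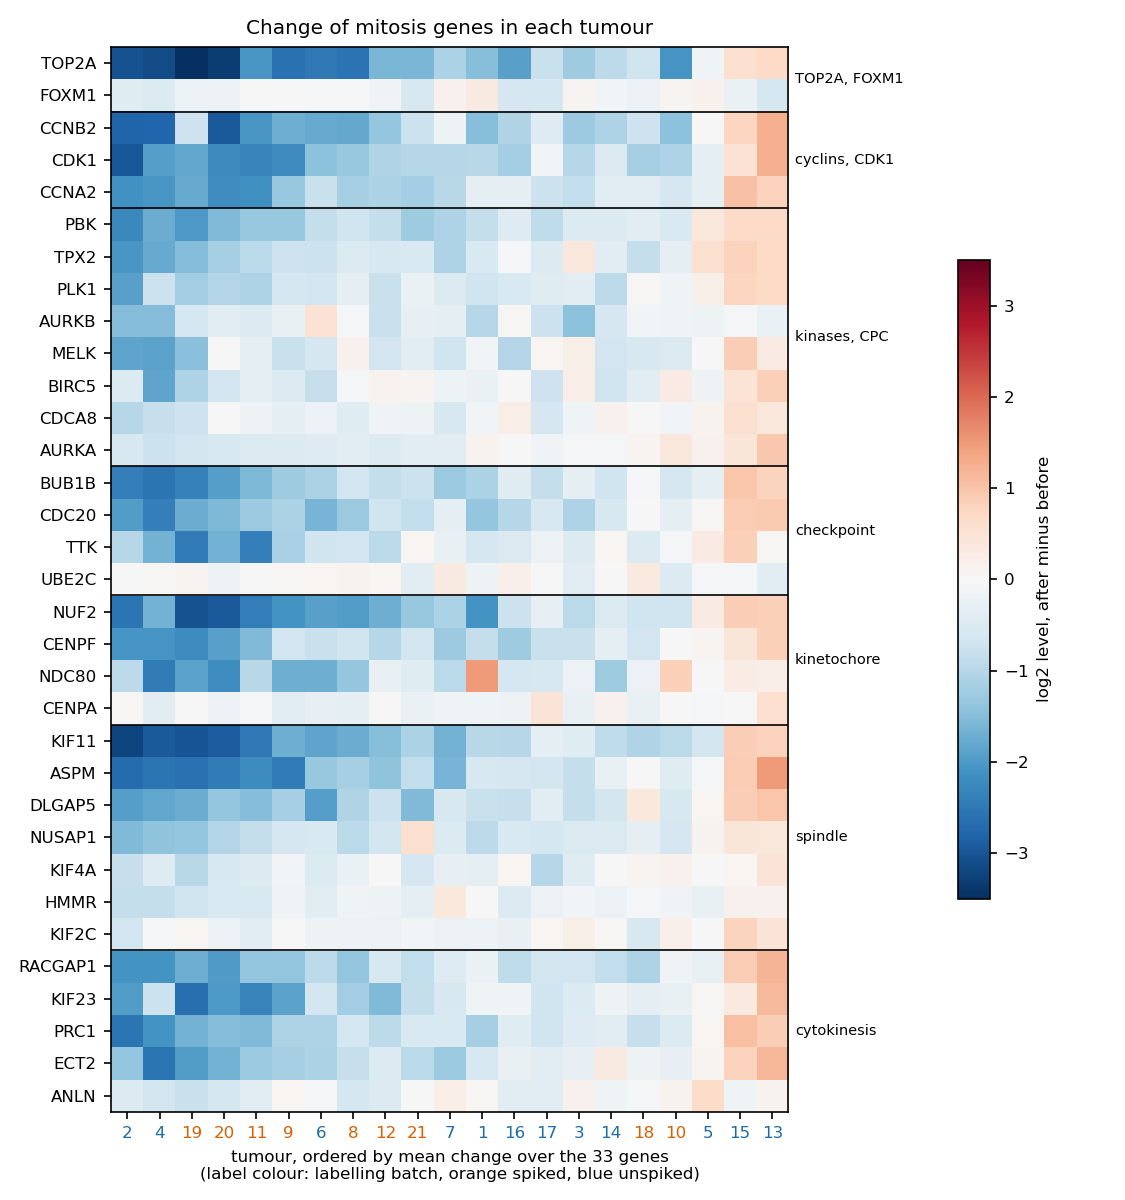
Change in log2 level (after minus before, colour) of each of the 33 genes (rows, grouped by role) in each tumour (columns, ordered by the mean change over the genes, from -1.63 in tumour 2 to 0.63 in tumour 13). Blue is lower and red higher after treatment; the columns of tumours 15 and 13 are red in nearly every row, and the rows of FOXM1, UBE2C and CENPA are pale.

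The genes changed together over the tumours. The Pearson correlation of changes between 2 genes had a median of 0.68 over the 528 pairs (n = 21 tumours, on the same arrays). It was 0.59 without tumours 13 and 15, 0.60 within the spiked batch and 0.77 within the other. The closest pair was CCNA2 and ASPM (0.95) and the least alike was UBE2C and KIF2C (-0.48). Against the mean of the other members, 21 genes had an r over 0.8, led by KIF11 (0.96), ASPM (0.96) and BUB1B (0.96). With the probe sets used, FOXM1 (0.004), UBE2C (-0.28) and AURKB (0.39) followed the others least, and AURKB, unlike the first 2, fell in 19 tumours. For the other FOXM1 probe set, with a change of -0.83, the correlation with the other members was not computed.

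The labelling batches gave mean changes of different size. The mean change over the genes was -0.87 ± 0.43 (SD, n = 9) in the spiked batch, with all 9 tumours below 0. It was -0.49 ± 0.69 (SD, n = 12) in the unspiked batch, with 9 of 12 below 0. The tumours with a mean change above 0, tumours 5, 13 and 15, were all in the unspiked batch. Within the spiked batch alone limma called 21 of 33 genes lower, against 1.81% of all genes. Within the unspiked batch alone it called 0 of 33 and 0% of all genes, while 19 of 33 had an unadjusted limma p under 0.05 with a change below 0, against 5.73% of all genes. TOP2A changed by -2.23 in spiked and -1.25 in unspiked tumours, and was lower in 9 of 9 and 10 of 12 tumours. A test of the difference between batches called none of the 33 genes (limma, 0.00662% of all genes called), and the smallest adjusted p was 0.607, for KIF23. Its changes were -1.45 and -0.33, lower in 9 of 9 and 9 of 12 tumours. At an unadjusted limma p under 0.05, 6 of 33 fell further in the spiked batch, against 2.89% of all genes.

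Signs of RNA quality and of other cells differed between tumours as well. The 3′ to 5′ contrast fell by 0.83 in tumour 13 and changed by 0.07 in tumour 15. Over the 21 tumours its change had a Pearson r of -0.47 with the mean change of the mitosis genes, and of -0.28 without these 2 tumours, which were picked for their higher mitosis genes. With the contrast as a covariate 19 of 33 genes fell, where 2.18% of all genes did, and 19 fell without the 4 tumours whose contrast changed by more than 0.5. Without this covariate and over all 21 tumours, 3.13% of all genes were lower and 4.02% higher. In that fit T cell markers had 4 of 8 measured genes lower, B and plasma cell markers 0 of 6, and keratinocyte markers 0 of 6. Their means per tumour ran from 4.51 to 6.43 (T cells), 4.45 to 6.11 (B cells) and 3.64 to 8.13 (keratinocytes) before treatment, and from 4.32 to 5.46, 4.44 to 5.32 and 3.68 to 7.36 after. In tumour 15 these lists changed by -0.97, -0.79 and -0.77, and in tumour 13 by -0.48, -0.53 and -0.57. Over the 21 tumours, their mean change had an r with the mean change of the mitosis genes of -0.14, -0.73 and -0.67, and of 0.27, -0.44 and -0.44 without tumours 13 and 15. Macrophage markers had 2 of 11 genes higher and 1 lower, neutrophil markers 3 of 7 higher (list means of -0.72 in tumour 13 and -0.90 in tumour 15), and endothelial, skeletal muscle and mesenchymal markers no call. The part of these shifts in the result was not tested.

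CDKN1A codes for p21, which inhibits cyclin-dependent kinases and acts ahead of these genes. It rose in all 21 tumours, by 1.85 ± 0.18 (SE, n = 21, limma adjusted p = 1.06e-05), from 0.05 in tumour 14 to 3.01 in tumour 10. No relation between the size of its rise and the changes of the mitosis genes was detected. With the CDKN1A change as the term, limma called none of the 33 genes (0.0397% of all genes called), the smallest adjusted p was 0.674, and 0 had an unadjusted p under 0.05 with a slope below 0, against 4.78% of all genes. For TOP2A, the 1 relation examined by correlation, Pearson's r was -0.28 (permutation p = 0.214) and Spearman's rho -0.33 (permutation p = 0.15, n = 21). Without tumours 14 and 5, farthest from the median CDKN1A change, r was -0.11. Within the spiked and unspiked batches r was -0.41 (permutation p = 0.269, n = 9) and -0.03 (permutation p = 0.929, n = 12). In tumour 13 CDKN1A rose by 2.71 while TOP2A changed by 0.69, and in tumour 2 CDKN1A rose by 0.54 while TOP2A changed by -3.04.

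**Figure D5:**
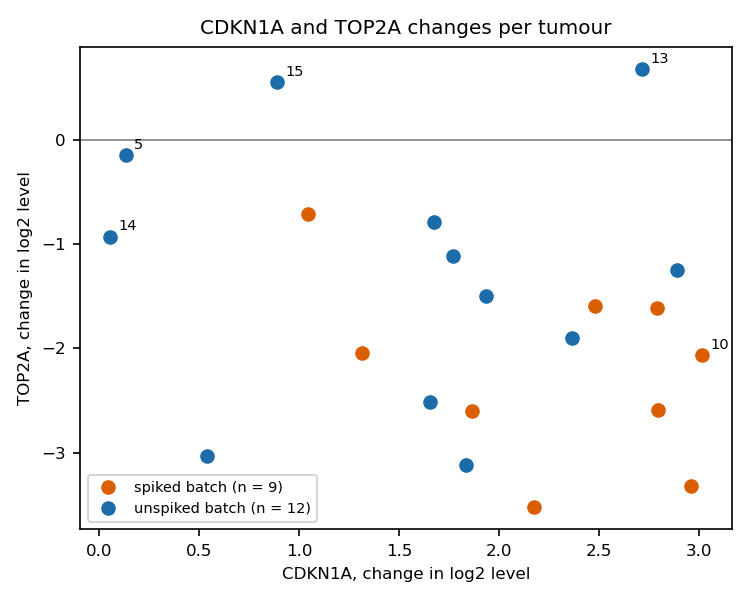
Change in log2 level of CDKN1A (x axis) and TOP2A (y axis) in each of 21 tumours, coloured by labelling batch. All tumours lie above 0 for CDKN1A, and the points show no clear slope (r = -0.28); tumours 13 and 15 lie above 0 for TOP2A.

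Other genes of the same processes were taken from a longer list. Of 77 measured G2 and mitosis genes outside the 33, 26 fell and 1 rose, with a median change of -0.19, against the 3.13% and 4.02% of all genes given above. None of 10 genes of CDK control fell. WEE1, the kinase that inhibits CDK1, rose by 0.64 ± 0.18 (SE, n = 21, limma adjusted p = 0.032) in 15 tumours, a call that was lost without tumour 1, 2, 3, 10, 12, 16 or 21 (limma adjusted p up to 0.0611). CDC25C, the phosphatase that opposes it, did not pass (-0.19 ± 0.07, limma adjusted p = 0.0922). Of 26 checkpoint and kinetochore genes 7 fell, led by CENPU (-0.75 ± 0.13) and KNTC1 (-0.54 ± 0.11). Of 20 spindle genes 9 fell, led by stathmin, STMN1 (-0.55 ± 0.10), and the kinesin KIF22 (-0.45 ± 0.09). Of 14 genes of condensin, cohesion and separation 7 fell, led by the condensin subunits NCAPG (-1.19 ± 0.23) and NCAPD3 (-0.46 ± 0.09). Of 7 cytokinesis genes 3 fell, among them SHCBP1 (-1.40 ± 0.27) and DEPDC1B (-0.52 ± 0.11).

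Core subunits and regulators were taken from lists of their own. Of 23 core genes of the anaphase-promoting complex and cohesin, 1 fell, STAG2, a cohesin subunit (-0.30 ± 0.06, SE, n = 21, limma adjusted p = 0.00318, 18 tumours), and the median change was 0.02, a share of calls near the 3.13% of all genes. FZR1, the activator of the anaphase-promoting complex after mitosis, did not pass (0.16 ± 0.05, limma adjusted p = 0.0668). Among 16 regulators of the DREAM complex and E2F, 3 fell and CDKN1A alone rose. Those that fell were E2F8 (-0.26 ± 0.07), E2F1 (-0.28 ± 0.08) and RB1 (-0.39 ± 0.11). E2F1 missed the threshold without tumour 1, 2, 4, 10, 16 or 21 (limma adjusted p up to 0.0575), and RB1 without tumour 3, 16, 20 or 21 (limma adjusted p up to 0.0542). MYBL2, which codes for B-MYB, did not pass (-0.14 ± 0.08, limma adjusted p = 0.343). Of 37 genes of DNA replication, 14 fell and 0 rose, with a median change of -0.25. RRM2, the ribonucleotide reductase subunit made in S phase (-1.67 ± 0.25), and CCNE2, an E-type cyclin (-0.59 ± 0.11), had the smallest p. Differences between the medians of these lists and that of the 33 mitosis genes were not tested.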

How the data were processed

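RNA of 21 sarcomas was measured on Affymetrix canine arrays. The deposited values are log2 levels, which the authors made with RMA and Affymetrix Expression Console, per the submitters' processing notes. Of 43035 probe sets, 111 controls were left out. Gene symbols came from the platform annotation, in which 29254 probe sets have 1 symbol, 439 several and 13231 none here. Probe sets ending in _s_at or _x_at, 18 of the 33 used, can bind related transcripts. RefSeq's current table matched 27680 of the 29254 by gene identifier and changed no symbol.

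The title of each array carries a tumour code, which pairs the arrays. After removal of group means all 21 pairs matched each other best (r from 0.44 to 0.90). Tumours are numbered in accession order. Whether the tumours come from separate dogs is not labelled. The p-values of the paired fit reflect the tumour-to-tumour spread of the changes alone. Tests used limma 3.58.1 in R 4.3.3, two-sided, with the tumour as a block and Benjamini-Hochberg adjustment over 42924 probe sets at 0.05, and correlations used 100000 permutations. Batches were split at the widest gap of the median poly-A spike-in level (5.05). Every measured member is named, with full statistics for the smallest and largest p of each role; of other lists, the smallest 2 p of each role and any opposite call are named. Members, lists and alternatives were chosen with earlier results of these data known. The fit was tested on simulated data. Python 3.11.15, SciPy 1.17.1 and pandas 2.3.3 were used.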

Additional observations from a re-analysis of the deposited data

How the results depend on the processing

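The count of 25 lower mitosis genes was between 19 and 28 under the random tumour block, trend and robust shrinkage, array weights, both rescalings, both alternative choices of probe set, the 3′ to 5′ covariate, the spiked batch alone, and without the tumours of changed contrast or without tumours 13 and 15, which were picked for their higher mitosis genes, so that larger falls follow from leaving them out. It ranged from 21 to 25 when each tumour was left out in turn. With no tumour block (unpaired groups) limma called 0 of 33, with 25 at an unadjusted p under 0.05 and TOP2A at an adjusted p = 0.0522. In the unspiked batch alone it called 0. With the filter at the median level it called 11 of the 15 genes left. No alternative called a member higher, and the median change stayed below 0 in all of them (-0.75 to -0.61 over tumours left out). The 26 other G2 and mitosis genes that fell became 0 with no tumour block, 0 in the unspiked batch, 13 of 43 after the filter, 41 with array weights and 41 without tumours 13 and 15, and ranged from 22 to 35 over tumours left out. Lower calls over all probe sets tested moved too, from 1285 in the main fit to 3 with no tumour block and 0 in the unspiked batch. They were 1256 after the filter, 1910 with array weights and 2203 without tumours 13 and 15. The change of UBE2C was 0.0074 without the tumours of changed contrast, above 0. The cause of these differences was not tested. The filter left fewer genes. The unspiked batch held 12 tumours, and the spiked batch, where 21 of 33 genes were called, held 9. No member was called for CDKN1A or for batch under any alternative run.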

Other observations

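The 10 genes outside the list whose change over the 21 tumours was most like the mean change of the 33 mitosis genes were CENPH (r = 0.94), NCAPG (0.94), DEPDC1 (0.92), RRM2 (0.92), SHCBP1 (0.92), SPC25 (0.92), KIF15 (0.91), KIFC1 (0.91), PLK4 (0.91) and CDCA3 (0.91), out of 15082. They are described by Pearson's r alone, over tumours measured on the same arrays. Of the 10, 9 were in the longer list of cell cycle genes. The exception was PLK4, the kinase of centriole duplication, which fell by 0.55 ± 0.12 (SE, n = 21, limma adjusted p = 0.00871) in 17 tumours. Genes further down the order include ESCO2, which acetylates cohesin in S phase (r = 0.87, change -0.66 ± 0.12, limma adjusted p = 0.0022, 19 tumours lower), and the chromatin ATPase gene ATAD2 (r = 0.82, change -0.63 ± 0.16, limma adjusted p = 0.0189). These 2 were chosen after their values were seen.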
